A study of Mus musculus with 4 samples.

Results

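Small nuclear RNA (snRNA), small nucleolar RNA (snoRNA) and small Cajal body RNA (scaRNA) genes were examined in the cytosolic fraction of mouse macrophages. A gene was taken when its annotation entry carried 1 of these 3 biotypes and its mean expected count over the 4 gene tables was at least 10. The members were therefore selected on measured counts, and their presence and level are a description. The rule kept 58 of 2941 annotated genes of the 3 classes, among 55536 annotated genes in all. Of these, 26 were snRNA genes of 1383, 26 were snoRNA genes of 1507 and 6 were scaRNA genes of 51. A mean of 10 could be reached through 1 library: 40 of the 58 had at least 10 counts in each library.

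The cells were primary bone marrow-derived macrophages of C57BL/6J mice, treated for 15 min with 100 ng/ml lipid A, the lipopolysaccharide anchor that Toll-like receptor 4 recognises. RNA of the cytosolic fraction was depleted of ribosomal RNA and sequenced as total RNA in 4 biological replicates, from 1 µg of RNA and with a labelled size range of 250 to 400. All 4 libraries belong to the same group and cite the same donor record, and sex and age are given as not collected. Neither unstimulated nor nuclear libraries were analysed here, so the values are levels in stimulated cytosol. Whether each replicate had its own animal or culture is not stated, and the p-values describe only how far these libraries spread, which may be technical.

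The spliceosomal snRNAs U1, U2, U4, U5 and U6 are the RNA cores of the particles that remove introns. U1 pairs with the 5′ splice site and U2 with the branch site. Box C/D snoRNAs guide 2′-O-methylation and box H/ACA snoRNAs guide pseudouridylation of ribosomal RNA, while U3 and U17 act in pre-ribosomal RNA cleavage. scaRNAs do the same kind of guiding on snRNAs in Cajal bodies. Most mammalian snoRNAs and scaRNAs are cut out of introns of host genes, whereas U1, U2 and U3 genes are transcribed from their own promoters. U1 and U2 snRNAs pass through the cytoplasm for Sm ring assembly, and most snoRNAs are held to stay in the nucleus.

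The libraries held 30088678 to 47961117 expected counts on annotated genes, and 3 counts corresponded to 0.0626 to 0.0997 CPM, which are counts scaled by the library total. Floors and counting intervals cover counting error only. All 8 macrophage markers reached a mean of 1 TPM, the length-corrected abundance the authors deposited. None of the 4 T cell, 4 B cell or 4 stromal markers did, and S100a8 alone did among 4 neutrophil markers. The summed stromal markers stood at 6.98 CPM in replicate 3 against 0.240 to 0.688 CPM in the other libraries. Summed neutrophil markers were at 8.79 CPM in replicate 3 and 4.42 to 5.55 CPM elsewhere. Replicate 1 stood apart from the other libraries, with 3273 genes called by DESeq2 against 3 to 17 for the other replicates.

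The sequences of genes that hold most of the counts show how alike the copies are. They are GENCODE M21 transcripts on mm10, read 5′ to 3′ in DNA letters. Capitals in the first 3 mark ACTTACCTG, the stretch that pairs with 5′ splice sites, and the Sm site ATTTNTG, where the Sm proteins bind. Rnu1a1 lies on the plus strand at chr11:87422867-87423030, Gm22513 on the plus strand at chr12:54696782-54696945 and Gm25890 on the minus strand at chr3:96486555-96486719.
Rnu1a1: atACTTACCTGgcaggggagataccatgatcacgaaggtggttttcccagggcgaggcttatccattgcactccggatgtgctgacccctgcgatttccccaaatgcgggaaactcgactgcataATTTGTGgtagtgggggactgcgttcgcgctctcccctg
Gm22513: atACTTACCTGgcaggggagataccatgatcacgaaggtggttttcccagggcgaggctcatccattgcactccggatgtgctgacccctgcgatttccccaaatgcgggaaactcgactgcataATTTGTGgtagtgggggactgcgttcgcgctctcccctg
Gm25890: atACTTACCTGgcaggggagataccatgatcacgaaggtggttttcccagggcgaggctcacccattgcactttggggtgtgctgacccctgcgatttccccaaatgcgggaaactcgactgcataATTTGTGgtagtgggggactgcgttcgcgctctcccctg
All 13 members of the U1 family held ACTTACCTG from base 3. Searched on the RNA strand within the first 20 bases, it was in 1.87% of all 2941 class transcripts and in 0% of their reverse complements. Positions in substitutions are counted from 1 at the 5′ end, with the base of Rnu1a1 first. Gm22513 differed from Rnu1a1 by T60C and Gm24305 by A26G, while 6 other members were identical to Rnu1a1 over all 164 bases. Gm25890 and Gm22614 were 165 bases long and identical to each other.

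The U2 members were just as alike. Capitals mark GTAGTA, the branch site recognition stretch, and the Sm site. Rnu2-10 lies at chr11:101658238-101658428, and Gm25939 and Gm25360 lie at chr1:72255008-72255198 and chr1:72226240-72226430, all on the plus strand.
Rnu2-10: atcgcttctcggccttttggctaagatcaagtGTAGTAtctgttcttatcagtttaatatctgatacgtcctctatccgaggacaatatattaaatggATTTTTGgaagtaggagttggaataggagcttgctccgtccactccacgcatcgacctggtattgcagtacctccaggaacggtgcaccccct
Gm25939: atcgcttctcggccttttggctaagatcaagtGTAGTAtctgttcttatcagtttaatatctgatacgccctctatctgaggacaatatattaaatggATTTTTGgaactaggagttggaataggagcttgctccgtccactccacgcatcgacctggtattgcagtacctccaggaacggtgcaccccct
Gm25360: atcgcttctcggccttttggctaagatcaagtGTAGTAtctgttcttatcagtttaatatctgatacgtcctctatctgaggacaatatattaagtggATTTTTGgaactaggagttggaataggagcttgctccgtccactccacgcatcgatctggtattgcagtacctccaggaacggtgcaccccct
Gm25939 differed from Rnu2-10 by T69C, C78T and G109C. Gm25360 differed from it by C78T, A95G, G109C and C154T. Another 3 genes, Gm23849, Gm23971 and Gm24950, were identical to Rnu2-10, and Gm23444 and Gm23472 shared the single difference G109C. GTAGTA began at base 33 in 11 members, the 10 of the U2 family and Gm22973, and stood within the first 60 bases of 1.53% of class transcripts (0.748% on the other strand). The Sm site was in all 26 snRNA members, against 20.5% of annotated snRNA transcripts and 11.4% of class transcripts (7.41% on the other strand). It was in 0 snoRNA and 0 scaRNA members.

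The remaining snRNA pair, Gm24265 and Gm24407, is 141 bases long. Gm24265 lies on the plus strand at chr5:115489459-115489599, with its Sm site in capitals.
Gm24265: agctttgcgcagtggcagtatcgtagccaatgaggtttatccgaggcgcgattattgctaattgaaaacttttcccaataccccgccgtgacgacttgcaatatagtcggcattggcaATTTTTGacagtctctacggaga
Gm24407 differed from it by G88A and C99A.

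The U3 snoRNA genes illustrate overlapping annotation. Capitals mark the D box CTGA in the last 20 bases, a protein-binding element of box C/D RNAs. Rnu3b1 lies at chr11:87443237-87443452 and Rnu3a at chr10:40258467-40258680, both on the plus strand.
Rnu3b1, 216-base entry: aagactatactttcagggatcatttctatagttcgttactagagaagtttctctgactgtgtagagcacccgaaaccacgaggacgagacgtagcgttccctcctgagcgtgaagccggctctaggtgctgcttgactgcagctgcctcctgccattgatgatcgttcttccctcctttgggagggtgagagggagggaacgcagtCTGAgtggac
Rnu3a, 214-base entry: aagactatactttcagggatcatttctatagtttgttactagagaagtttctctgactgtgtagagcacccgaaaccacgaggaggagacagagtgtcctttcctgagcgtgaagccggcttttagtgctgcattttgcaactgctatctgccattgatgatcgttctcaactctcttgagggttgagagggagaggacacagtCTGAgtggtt
Each of the 4 Rnu3b loci and the Rnu3a locus is annotated as 2 nested genes of the same symbol. The shorter entry of 215 or 213 bases lacks only the last base of the longer one. The 4 longer Rnu3b entries were identical to each other, so 8 of the members describe the same sequence apart from that last base.

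Box H/ACA RNAs typically end in ACA followed by 3 bases, and the ACA is in capitals here. Snora73a and Snora73b, the U17 snoRNAs, lie on the minus strand at chr4:132352775-132352979 and chr4:132352322-132352526, and Gm25776 lies on the minus strand at chr12:91573430-91573572.
Snora73a: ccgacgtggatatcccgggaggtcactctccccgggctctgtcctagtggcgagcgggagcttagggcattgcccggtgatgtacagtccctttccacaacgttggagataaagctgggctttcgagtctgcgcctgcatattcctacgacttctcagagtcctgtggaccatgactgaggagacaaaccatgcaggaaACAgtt
Snora73b: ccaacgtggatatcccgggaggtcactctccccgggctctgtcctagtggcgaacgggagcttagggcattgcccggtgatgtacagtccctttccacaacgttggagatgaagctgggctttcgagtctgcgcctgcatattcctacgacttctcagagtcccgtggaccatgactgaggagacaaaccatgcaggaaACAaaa
Gm25776: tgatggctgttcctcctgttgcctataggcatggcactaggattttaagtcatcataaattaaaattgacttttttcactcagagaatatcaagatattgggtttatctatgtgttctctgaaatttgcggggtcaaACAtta
Snora73b differed from Snora73a by G3A, G54A, A111G, T164C, G203A, T204A and T205A. The pattern ACANNN at the 3′ end was in 5 snoRNA and 2 scaRNA members, against 18.3% of annotated snoRNAs, 49.0% of annotated scaRNAs and 10.7% of class transcripts (0.952% on the other strand).

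Capitals in the next sequences mark the C box TGATGA, searched in the first 20 bases, and the D box CTGA. They belong to Snord17 on the minus strand at chr2:144265979-144266216, Snord22 on the plus strand at chr19:8725866-8725991 and Scarna6 on the plus strand at chr1:87784556-87784820. The rest are the ends of Gm22009, the member with the highest mean expected count, on the minus strand at chr3:69085105-69085447.
Snord17: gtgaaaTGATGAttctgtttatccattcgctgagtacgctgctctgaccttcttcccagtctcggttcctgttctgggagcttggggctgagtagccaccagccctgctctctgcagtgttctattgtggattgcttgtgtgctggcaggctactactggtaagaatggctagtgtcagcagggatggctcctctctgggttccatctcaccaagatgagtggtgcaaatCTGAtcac
Snord22: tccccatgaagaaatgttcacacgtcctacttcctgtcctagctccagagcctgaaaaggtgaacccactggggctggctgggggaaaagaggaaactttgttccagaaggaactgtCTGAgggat
Scarna6: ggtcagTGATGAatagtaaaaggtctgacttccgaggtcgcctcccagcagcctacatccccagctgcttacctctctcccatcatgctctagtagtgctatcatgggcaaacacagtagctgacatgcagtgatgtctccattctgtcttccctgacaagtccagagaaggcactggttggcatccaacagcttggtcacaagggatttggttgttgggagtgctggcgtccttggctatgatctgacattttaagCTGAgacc
Gm22009, bases 1 to 60: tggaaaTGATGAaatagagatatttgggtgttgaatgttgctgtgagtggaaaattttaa
Gm22009, bases 284 to 343: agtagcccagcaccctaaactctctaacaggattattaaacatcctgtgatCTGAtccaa
Both boxes were found in 9 members, among them Gm22009, Scarna10, Scarna6, Gm25395, Gm23547 and Snord17, and in 10.7% of class transcripts. With or without the other box, the C box was in 11.3% of class transcripts (0.204% on the other strand) and the D box in 20.3% (11.6% on the other strand). The letters TGATGA were not in that window of Snord22.

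Long genes were kept more often than short ones. The members were 126 to 414 bases long, with a median of 191, whereas the median over all class genes was 108. The share kept was 1.03% of 871 genes of 126 to 150 bases, 24.1% of 54 genes of 176 to 200 bases, 55.6% of 27 genes of 201 to 250 bases and 63.6% of 11 longer ones. The gene tables give an effective length, the number of start positions a fragment of the library's size can take, and it was 0 in all 4 libraries for 1718 class genes. Only 6 of these had any expected count, while 448 of them had an estimated count in the target tables, which the deposited text derives from the read files. The U6, U5 and U7 genes Rnu6, Rnu5g and Rnu7 were listed at 0 counts in every gene table, as were Rnu11 and Snord13. Snord118, the U8 snoRNA, had a mean of 0.250.

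**Figure D1:**
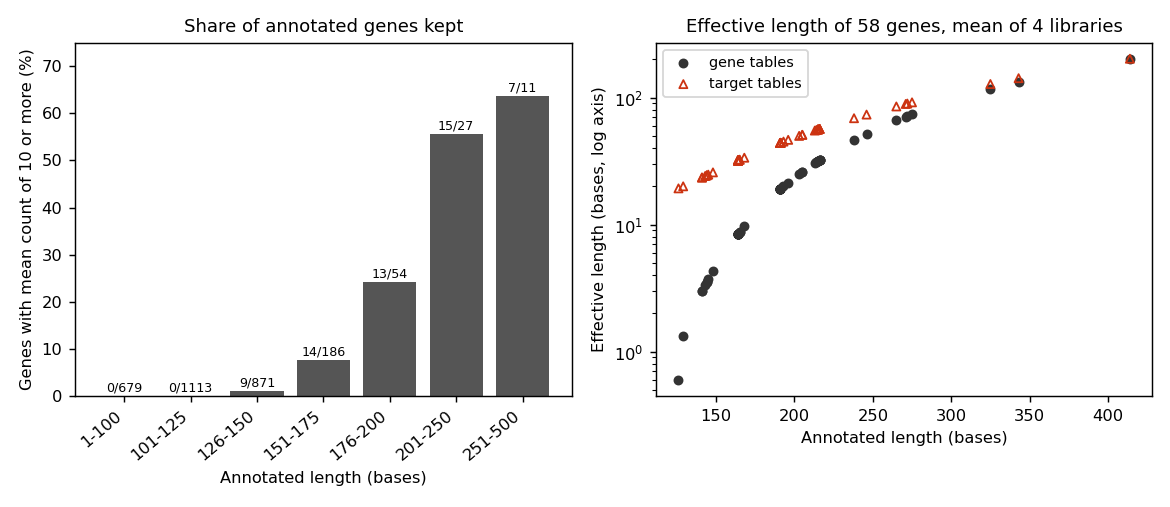
Left, the share of annotated snRNA, snoRNA and scaRNA genes kept by the rule (percent, vertical axis) by annotated length in bases, with kept and annotated numbers above each bar. Right, the effective length in bases (log axis) of the 58 kept genes against annotated length, as the mean of 4 libraries, with gene tables as filled circles and target tables as open triangles. The share kept rises from 0 in the shortest classes to 63.6% above 250 bases, and the gap between the tables closes as length grows.

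Just above the threshold were Gm24119 with a mean of 12 expected counts, Gm22973 with 13.2, and Gm25835 and Snord15a with 14 each. Just below it were Rnu12, the U12 snRNA of the minor spliceosome, with 9.25, Gm22486 with 7.25 and Gm26397 with 6.00. Rnu12 had 5, 7, 8 and 17 expected counts in replicates 1 to 4, but 83.0, 74.8, 201 and 92.0 estimated counts in the target tables.

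The effective lengths shape every length-corrected value. Their median over members was 14.8 bases in replicate 1 and 23.4 in replicate 4, and 9 members stayed under 10 bases in all 4 libraries. In the target tables the medians were 37.5 and 47.0 bases. The ratio of target to gene table effective length ran from 1.01 for Scarna2, the longest member, to 32.2 for Snord22, the shortest. TPM divides by these lengths. The mean target TPM was below the mean gene table TPM for 57 of 58 members, with a median log2 ratio of -2.86. The 58 members summed to 9833 ± 4220 TPM (SD, n = 4) in the gene tables and to 1276 ± 367 TPM in the target tables, a 7.71-fold gap. Snord22 had an effective length of 0 and a TPM of 0 in replicate 1 with 13.0 expected counts there. Levels below are therefore given as CPM, which is not corrected for length. An order of genes or classes of different length by CPM is thus an order of counts. TPM is added in some comparisons.

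All members together took 0.0337% ± 0.0155 of expected counts (SD, n = 4). The snRNA members took 0.0158% ± 0.00914, the scaRNA members 0.0116% ± 0.00482 and the snoRNA members 0.00631% ± 0.00324. By summed TPM the last 2 classes were in the reverse order. The snoRNA members stood at 2086 ± 1619 TPM and the scaRNA members at 513 ± 187 TPM in the gene tables. In the target tables they stood at 249 ± 108 and 147 ± 21.5 TPM. By library, the snRNA share was 0.00945%, 0.0106%, 0.0292% and 0.0141% in replicates 1, 2, 3 and 4. The snoRNA share was 0.00394%, 0.00356%, 0.00727% and 0.0105%. The scaRNA share was 0.00602%, 0.00947%, 0.0170% and 0.0137%. Replicate 3 was highest for snRNA and scaRNA members and replicate 4 for snoRNA members, with the highest library 2.83 to 3.09 times the lowest. In a bulk fraction, fewer cells holding an RNA and less of it per cell cannot be told apart.

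**Figure D2:**
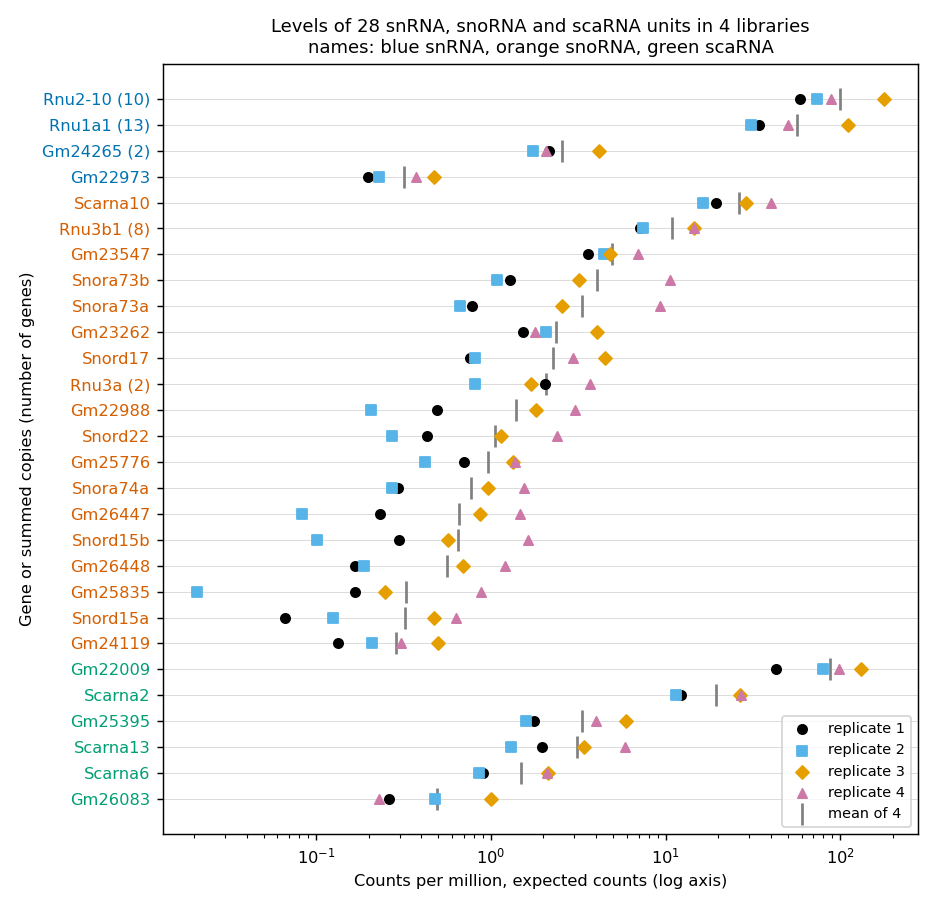
CPM (log axis) in each of the 4 libraries for the 28 units left when near-identical copies are summed, with the number of genes summed in brackets; points are libraries and the grey bar is their mean. U2, Gm22009 and U1 lead, replicates 1 and 2 sit to the left in most rows, and replicate 4 lies far right for Snora73a and Snora73b.

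Copies were summed where at least 50% of a gene's 31-base words stood in another class gene, which turned the 58 members into 28 units. Of these, 5 units held 35 members and 23 members stood alone. Summed over 11 annotated genes, 10 of them members, U2 had the highest mean of all units, at 58.6, 73.5, 178 and 88.5 CPM in replicates 1 to 4. The scaRNA Gm22009 was above it in replicates 2 and 4, and both stood at 73.5 CPM on average without replicate 3. U1, summed over 20 annotated genes with 13 members, stood at 34.1, 30.7, 111 and 50.2 CPM. U1 and U2 were both highest in replicate 3, and were lowest in different libraries. The Gm24265 pair was at 2.16, 1.75, 4.17 and 2.08 CPM, also highest in replicate 3, and Gm22973 at 0.199, 0.229, 0.472 and 0.371 CPM. Per length, the U1 gene Gm22513 stood at 1019 ± 556 TPM and the U2 gene Gm25939 at 471 ± 219 TPM (SD, n = 4) in the gene tables, where Gm22513 had effective lengths of 6.57 to 10.8 bases. In the target tables they stood at 92.4 ± 38.3 and 74.8 ± 19.6 TPM, with Gm25939 the higher in replicate 2.

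Among scaRNAs, Gm22009, a 343-base gene in an intron of the importin gene Kpna4, held 1295, 3792, 5274 and 4497 expected counts, or 43.0, 79.1, 131 and 98.2 CPM. It alone carried more CPM than the other 5 scaRNA members together. Scarna2, which overlaps no gene on its strand, was at 12.3, 11.4, 26.8 and 27.1 CPM, with replicates 3 and 4 alike and above replicates 1 and 2. Gm25395 and Scarna6, both in introns of the autophagy gene Atg16l1, were at 1.76, 1.58, 5.91 and 3.98 CPM and at 0.897, 0.855, 2.11 and 2.10 CPM. Scarna13, in an intron of Snhg10, was at 1.96, 1.31, 3.40 and 5.86 CPM. Gm26083, in an exon of Snhg20, went the other way in replicate 4, with 0.260, 0.477, 0.999 and 0.230 CPM.

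Among snoRNAs, Scarna10, annotated as a snoRNA in spite of its name, led with 19.4, 16.4, 28.7 and 40.3 CPM. The summed Rnu3b entries, U3 snoRNA, stood at 7.11, 7.38, 14.5 and 14.6 CPM, and the Rnu3a pair at 2.03, 0.813, 1.69 and 3.71 CPM. Snora73b was at 1.28, 1.08, 3.19 and 10.6 CPM and Snora73a at 0.783, 0.662, 2.55 and 9.33 CPM, so the highest library exceeded the lowest 9.85-fold and 14.1-fold. Without replicate 4 their means fell from 4.04 to 1.85 CPM and from 3.33 to 1.33 CPM. Gm22988, in an exon of Eif4a1, ranged from 0.206 CPM in replicate 2 to 3.04 in replicate 4, and Snord22, in an exon of Snhg1, from 0.271 to 2.38 CPM in the same libraries. By gene, 18 of 26 snoRNA members were highest in replicate 4, 7 in replicate 3 and 1 in replicate 1. In contrast, 22 of 26 snRNA members were highest in replicate 3. Copies with equal counts recur in these tallies.

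Host genes on the same strand were compared by their range over the libraries. Host here means any overlapping gene on the same strand, which for U1, U2 and U3 copies need not be their source. Of 31 members with a host counted in every library, 23 ranged more widely than each such host. Gm24497 is among the 23 with a listed 0.01 expected counts in replicate 4, and copies with equal counts enter repeatedly. Scarna13 ranged 4.46-fold against 8.03-fold for Snhg10, which had a mean of 0.199 CPM, and the longer Rnu3b entries 2.05-fold against 4.02-fold for Tex14, at a mean of 0.105 CPM. Among members that stand alone, 20 lie on the strand of a gene with a mean of at least 1 CPM, and in 19 of them the highest library exceeded the lowest by more than in each such host. The exception was Scarna10, with a 2.45-fold range against 2.89-fold for Ncapd2. Ranges were not corrected for counting error, and some rest on few counts. Gm25835 ranged 41.9-fold on 5, 1, 10 and 40 expected counts, in an intron of Eif4a1 at 439 to 758 CPM. Whether members varied more than their hosts beyond counting error was not tested. For Snora73a, the hosts were Rcc1 at 20.1, 6.92, 8.29 and 8.13 CPM and Snhg3 at 2.11, 1.39, 1.32 and 2.06 CPM, both highest in replicate 1, where the snoRNA was near its lowest. Kpna4 was at 178, 108, 103 and 115 CPM, highest in the library where Gm22009 was lowest by CPM. Most hosts had this order: of the 17 hosts at a mean of at least 1 CPM that overlap members standing alone, 13 were highest in replicate 1. Snord17 ranged 5.91-fold inside Snx5, which ranged 1.14-fold. Host exons share words with 6 members over their whole length (Gm22988, Snord22, Snora74a, Gm26447, Snord15b and Gm26083), so part of their reads cannot be told apart from the host's.

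Each library was set against the other 3 with edgeR's quasi-likelihood test. In replicate 1, 2 members were called higher (background 14.5% of 14036 genes) and 1 was called lower (background 7.59%), and both counts lie below the background shares. The 1 lower member was Gm22009, with a log2 fold of -1.38 ± 0.34 (SE) by edgeR, and by CPM it was lowest in replicate 1. Its TPM in replicates 1 to 4 was 230, 305, 502 and 473 in the gene tables. In the target tables it was 112, 95.0, 114 and 112, so replicate 1 was not the lowest there. The 2 higher ones were the U1 copies Gm24924 and Gm26244, with 65.5 expected counts each in replicate 1 and at most 0.01 in the others. The posterior means in the same tables were above 0 in every library, at 66.2, 98.0, 157 and 56.7 for Gm24924 and 71.1, 79.1, 136 and 64.5 for Gm26244, so the listed 0 gives no fold. In the same library 7 identical U1 genes were also given 65.5 counts each, and neither copy was called when U1 was summed (log2 fold -1.04 ± 0.77, adjusted p = 0.386 by edgeR). DESeq2 called 1 member in replicate 1, again Gm22009 (background 23.3%). Without replicate 2, the median log2 fold of the members in replicate 1 was -1.48, against -1.24 with it, copies with equal counts included. Scarna2 then stood at -1.24 ± 0.15 and Snord17 at -2.41 ± 0.50 (log2 fold ± SE).

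In replicates 2, 3 and 4, edgeR called 0 members, against 0% of all genes in each. At an unadjusted p under 0.05, edgeR had 0 members in replicate 2 (1.95% of all genes), 24 in replicate 3 (0.962%) and 7 in replicate 4 (0.741%), and in replicate 1 it had 3 (36.3%). Many of these are copies that share reads: the 24 belong to 5 units and the 7 to 4 units. Summed over copies, log2 folds (± SE) in replicate 3 were 1.67 ± 0.28 (U1), 1.41 ± 0.27 (U2) and 1.30 ± 0.40 (Gm23262). They were 1.20 ± 0.34 for the Gm24265 pair and 0.73 ± 0.48 for Rnu3b. The 4 units had 2.67 ± 0.84 (Snora73a), 2.40 ± 0.69 (Snora73b), 0.48 ± 0.54 (Rnu3b) and -0.35 ± 0.76 (U2) in replicate 4. Those of Rnu3b and U2 in replicate 4 were smaller in size than their SE. DESeq2 called 0, 0 and 1 members, against 0.0570%, 0.0214% and 0.121% of all genes, the last being the U2 copy Gm24497, listed at 189, 342 and 224 expected counts in replicates 1 to 3 and at 0.01 in replicate 4. Leaving out replicate 1 gave 2 members lower in replicate 2 (background 0.613%), Scarna2 (-1.19 ± 0.15, adjusted p = 0.0418 by edgeR) and the longer Rnu3a entry, listed at 0 counts in replicates 1 and 2.

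With copies summed, an alternative added after the data were seen, the log2 fold was below 0 for all 28 units in replicate 1 and in replicate 2, with medians of -1.24 and -1.32. It was above 0 for 23 of 28 in replicate 3 and for 22 of 28 in replicate 4, with medians of 0.77 and 0.62. Over all tested genes the medians were -0.00, -0.06, -0.02 and -0.01. The folds of the units are not corrected for effective length. Its median over members was 14.8 bases in replicate 1 and 23.4 in replicate 4. Summed TPM of the members was 7722, 5387, 15075 and 11148 in replicates 1 to 4 of the gene tables. In the target tables it was 1593, 768, 1487 and 1255, so replicate 1 was not low there. Of single units, U1 stood at 1.67 ± 0.28 and U2 at 1.41 ± 0.27 in replicate 3, and Snora73a at 2.67 ± 0.84 and Snora73b at 2.40 ± 0.69 in replicate 4 (log2 fold ± SE), none with an adjusted p under 0.05 by edgeR.

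**Figure D3:**
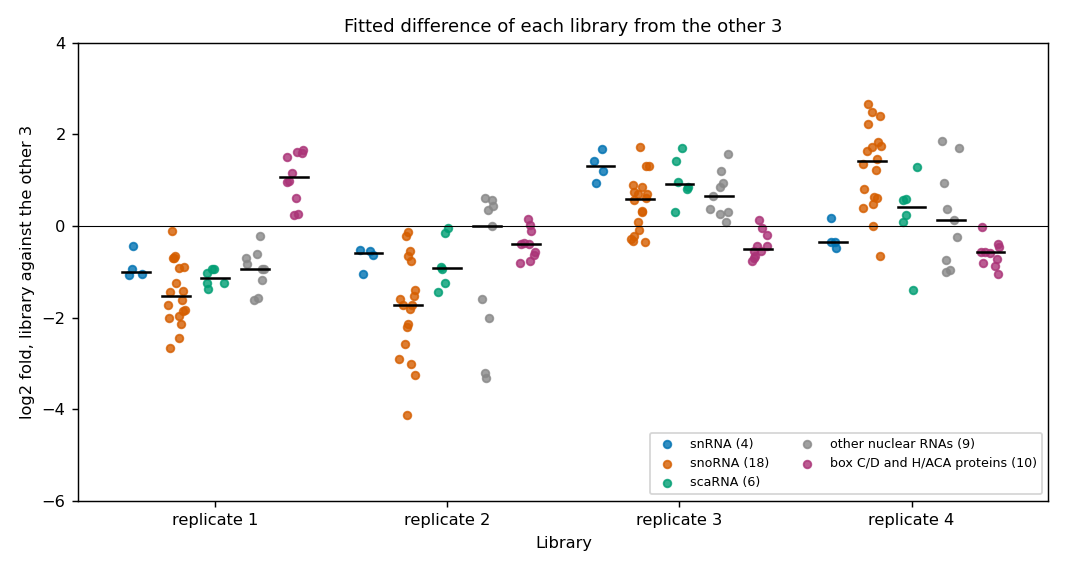
Fitted log2 fold of each library against the other 3 (vertical axis) for the 28 units by class, 9 other nuclear RNAs and 10 box C/D and H/ACA proteins; points are genes or summed copies, and black bars are medians. The small RNA units lie below 0 in replicates 1 and 2, while the proteins lie above 0 in replicate 1.

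Other nuclear RNAs are given side by side for the same libraries. The speckle RNA Malat1 was at 1779, 1642, 7963 and 5441 CPM and the paraspeckle RNA Neat1 at 257, 178, 965 and 983 CPM. Both were low in replicates 1 and 2 and high in replicates 3 and 4, as most of the small RNA units were by CPM. Xist, which coats the inactive X chromosome, was at 164, 40.7, 329 and 693 CPM, and Kcnq1ot1, an imprinted antisense RNA, at 22.8, 4.52, 40.9 and 79.7 CPM. Tug1, a nuclear long noncoding RNA, was at 117, 119, 120 and 139 CPM. The structured RNAs transcribed by RNA polymerase III were ordered otherwise. Rn7sk, which restrains elongation factor P-TEFb, was at 9240, 15157, 17818 and 7550 CPM, and Rmrp, of RNase MRP, at 976, 1774, 2242 and 1074 CPM. Of 9 tested RNAs of this list, edgeR called 0 in any library. The part of nuclear RNA carried into the fraction in the results on members was not tested.

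Genes for proteins that bind or assemble these RNAs were called in replicate 1 only in part. All 4 box C/D core proteins were called higher there by edgeR: the methyltransferase Fbl (0.95 ± 0.14 log2 fold ± SE, adjusted p = 0.0116), Nop56 (1.66 ± 0.16), Nop58 (1.59 ± 0.11) and Snu13 (0.99 ± 0.08). Of 6 box H/ACA proteins 3 were higher, among them the pseudouridine synthase Dkc1 at 21.5, 6.15, 6.48 and 6.75 CPM. Of 27 Sm and snRNP-specific proteins 17 were higher, of 11 Cajal body and snoRNP biogenesis genes 5, of 21 snRNA transcription, export and SMN assembly genes 10, and of 12 tested noncoding snoRNA host genes 2. In these lists 0 genes were called lower in replicate 1, although some had a fold below 0, such as the cap methyltransferase Tgs1 (-0.23 ± 0.09, adjusted p = 0.130 by edgeR), and the background of 14.5% higher applies to each count.

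Variation over the 4 libraries exceeded Poisson counting for 57 of 58 members and for 82.8% of all tested genes. Summing copies left 27 of 28 units. Copies with equal counts enter the first count repeatedly. Without replicate 3 it was 45 of 58 members (77.6%), against 78.6% of all genes.

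Copies shared their reads. The 58 members held 41 distinct sequences between them. Of the members, 23 were identical to another member, and 25 had expected counts equal to those of another member in every library. The gene tables give a posterior mean and SD of each count. For the 25 members whose 31-base words all stood in other class genes, the SD was 48.9% to 98.7% of the mean, with a median of 77.7%. For the 17 members that shared no word with a class gene, it was at most 4.84%, with a median of 0%. Copies that differed by 1 to 3 substitutions from Rnu1a1 or Rnu2-10 ranged widely. Gm25939, with 80.7% of its words shared, had a relative SD of 0.0495% and Gm22513, with 82.8% shared, 0.0226%. It was 10.7% for Gm24305, 26.6% for Gm26316, 73.2% for Gm24497, 93.9% for Gm26244 and 98.7% for Gm24924.

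**Figure D4:**
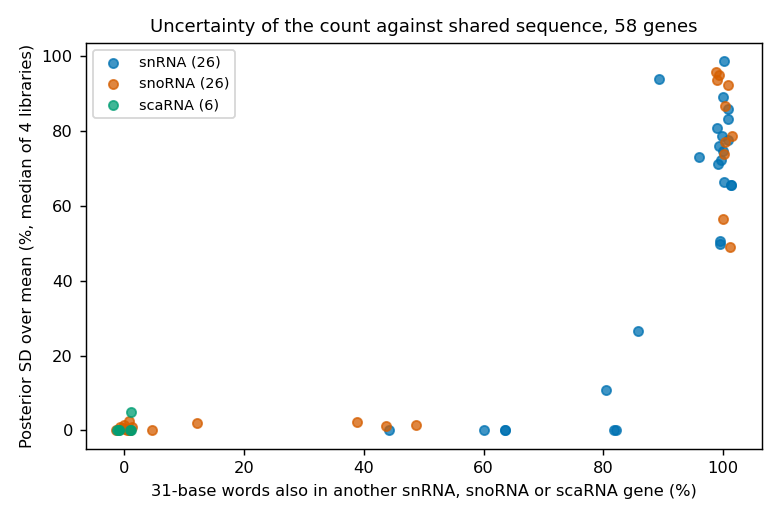
Posterior SD over mean of the count (percent, median of 4 libraries, vertical axis) against the percent of 31-base words that stand in another class gene, for the 58 genes coloured by class, with a small horizontal jitter. Genes with all words shared lie between 48.9% and 98.7%, and those that share none lie at or below 4.84%.

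The expected counts of copies were listed at 0 in some libraries where the posterior means were not. The 4 shorter Rnu3b entries were listed at 0, 0, 0 and 62.5 expected counts in replicates 1 to 4, each nested in a longer entry at 53.5, 88.5, 146 and 105. Posterior means of those 4 shorter entries were 6.35 to 7.33, 17.7 to 25.4, 33.3 to 40.3 and 64.5 to 90.0. The shorter Rnu3a entry had 61.0, 39.0, 12.8 and 85.7 expected counts, and the longer one 0, 0, 55.2 and 84.3, with posterior means of 20.9, 16.6, 35.7 and 93.8. Gm24497 was listed at 189, 342, 224 and 0.01, next to Gm23444, which differs from Rnu2-10 by the same G109C, at 189, 342, 1023 and 646. The posterior means of Gm24497 were 188, 346, 638 and 162.

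The target tables were set against the gene tables gene by gene. Means of the 2 tables lay within 2-fold, on the log2(value + 1) scale, for 44 of 58 members (75.9%), against 94.0% of all 14036 tested genes. Members alone in their unit did so in 22 of 23 cases, members of multi-copy units in 22 of 35. Gm22009 had 1.02 times its expected counts in the target tables and Scarna10 1.05 times. These ratios are of unscaled counts, and the target tables held 33942125 to 60493322 counts on annotated genes, against 30088678 to 47961117. Scaled by the total of each table, Gm22009 averaged 70.3 CPM in the target tables and 87.8 CPM in the gene tables. Of the 14 members outside 2-fold, 8 were higher and 6 lower in the target tables, and the 6 were listed at 0 there in all 4 libraries: the 4 shorter Rnu3b entries, the shorter Rnu3a entry and Gm26244. The largest positive ratios were those of the longer Rnu3a entry (5.06), Gm24497 (3.31), Gm25835 (2.41) and the longer Rnu3b entries (2.31). Gm25835 shares no 31-base word with another gene, nor do Gm24119 (2.02) and Snord17 (1.44), whereas 85.8% of the words of Scarna10 stand in a transcript of another biotype.

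Summing copies brought the tables together. Of 28 units, 26 lay within 2-fold, with ratios of unscaled counts from 0.960 to 2.41 and a median of 1.14. The ratio was 1.25 for U2 and 1.15 for U1, but 1.99 for Rnu3b, 2.09 for Rnu3a and 1.92 for the Gm24265 pair. Across members, Pearson's r of log2 mean counts was 0.847 and Spearman's rho 0.924, and across units r was 0.989 and rho 0.971. These describe genes that share libraries and reads, not independent points. In single libraries, r across members was 0.767, 0.917, 0.937 and 0.663 in replicates 1 to 4.

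**Figure D5:**
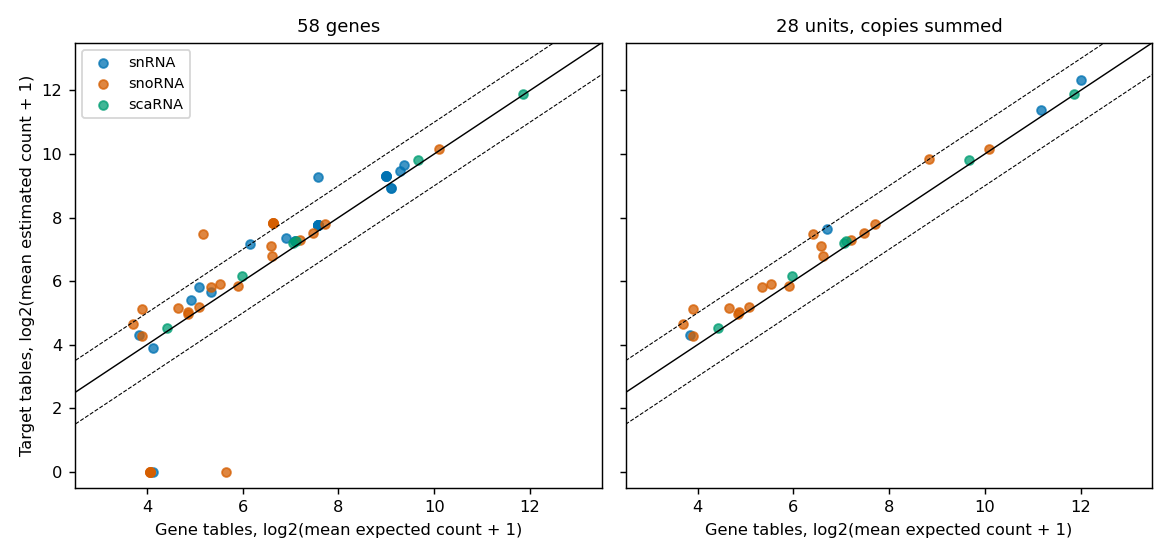
Mean counts of the target tables (vertical axis) against those of the gene tables, both as log2(mean + 1), for 58 genes on the left and 28 units with copies summed on the right, coloured by class; the solid line marks equality and dashed lines 2-fold. On the left 6 genes lie at 0 in the target tables, and on the right 26 of 28 units lie within 2-fold.

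The target tables also gave counts to class genes that had few or none in the gene tables. There, 91 class genes had a mean of at least 10 estimated counts, of which 52 were members and 39 were not. The 39 comprised 17 snRNA, 20 snoRNA and 2 scaRNA genes of 70 to 180 bases, and 24 of them had 0 expected counts in every library. Gm25047, a 104-base snRNA gene, led them with 322, 278, 189 and 221 estimated counts. Rnu5g, of the U5 snRNA, had 21.9, 21.9, 27.8 and 29.1, Snord118 had 37.0, 19.0, 35.0 and 18, and Snord13 had 7, 3, 10 and 21. Class genes outside the members summed to a mean of 2291 estimated counts, against 16457 for the members.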

How the data were processed

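Per the labels, total RNA-seq libraries of 4 replicates were analysed. The authors deposited gene tables with expected counts, posterior means and SDs, effective lengths and TPM, and target tables with estimated counts, effective lengths and TPM, per the file headers. The deposited text names mm10 and GENCODE M21. The quantifiers, their version and any use of strand were not given in the sources used here. Overlapping genes may therefore share reads.

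Biotype, length and sequence came from GENCODE M21, and the synonym U17 from RefSeq genes of GRCm38.p6, where 50 members matched by symbol. The members and gene lists were chosen with earlier results of these data known. Rows that name no gene held 0.0267% to 0.407% of expected counts and were left out of totals. Expected counts were rounded, and genes with a mean of at least 10 were fitted with edgeR 4.0.16 (TMM, quasi-likelihood, Benjamini-Hochberg adjusted p under 0.05) in R 4.3.3. The lone library is assumed to vary like the other 3. The SE given with an edgeR log2 fold is its absolute value divided by the square root of the test's F statistic. It restates that test and is not a separate estimate. DESeq2 1.42.0 was an alternative. Spread beyond Poisson counting was tested per gene by its deviance. The tests were tested on simulated data, drawn for each gene separately and with the same dispersion for all genes. Those data do not show how the tests behave on copies that share reads. Python 3.11.15 with pandas 2.3.3 was used for the rest. Alternatives were other size factors, no filter, target tables, left-out replicates and other thresholds.

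Named genes are the 10 most abundant snRNA and snoRNA members and all scaRNA members, spliceosomal, U3, U8, U13 and U17 copies, called members, the largest differences between tables, genes next to the threshold and host genes of abundant members. Gm25047, Gm22988 and the list genes given with values were picked after their values were seen.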

Additional observations from a re-analysis of the deposited data

Results flagged for a closer look

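A library lay far from the other 3 for 10 of 66 values checked, by the gap to the nearest library over the whole range; chance gives about 1 in 20. Replicate 3 stood high for the identical U1 genes Gm22614 and Gm25890, each at 6.88 CPM, and for Gm24407 at 1.27 CPM and the Gm24265 pair at 4.17 CPM. Replicate 1 stood high for the U1 copies Gm24924 and Gm26244, each at 2.18 CPM. Replicate 4 stood high for the shorter Rnu3b1, Rnu3b2, Rnu3b3 and Rnu3b4 entries, each at 1.37 CPM. The last 6 genes are copies listed at about 0 in the other 3 libraries, and most of these values repeat the same reads.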

How the results depend on the processing

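Of results on counts, the number of genes kept was 91 in place of 58 with a mean of at least 10 estimated counts in the target tables. Members called in replicate 1 were 3, and became 1 with DESeq2, 1 in the target tables and 1 with copies summed, and 3 to 17 when a replicate was left out; all genes called were 22.1%, then 23.3%, 15.7%, 22.2% and 19.1% to 22.8%. In replicate 2 the count of 0 became 0 to 2 with a replicate left out, and in replicate 4 it was 1 with DESeq2. Members varying beyond counting were 57, and 27 units with copies summed. In the target tables Gm24924 is listed at 0, 0, 55.1 and 0 estimated counts in replicates 1 to 4. Its log2 fold of -7.25 ± 5.48 in replicate 1 there rests on replicate 3 alone and shows no reversal. Shares of the 3 classes moved by less than their SD under every alternative run, and the count of members within 2-fold stayed at 41 to 48. Of 168 family levels recomputed, 4 moved by their SD or more, all in the target tables. By fold, 15 moved over 1.5 times: 9 snoRNA units without replicate 4, the largest being Snora73a (1.33 from 3.33 CPM) and Gm25835 (0.145 from 0.327 CPM), Gm26083 without replicate 3 (0.322 from 0.491 CPM), and 5 units in the target tables. No paired analysis was possible because the libraries form 1 group. The cause of each change was not tested. The 4 libraries, the effective lengths of a few bases and the copies that share reads limit what single genes can show.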
